A study of Mus musculus with 2 samples.

Results

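The interferon-induced GTPases described here are 10 mouse genes, 5 guanylate-binding proteins (Gbp2, Gbp3, Gbp5, Gbp6 and Gbp7) and 5 immunity-related GTPases (Irgm1, Irgm2, Igtp, Iigp1 and Tgtp1). They were taken by symbol from a table of 55487 genes, and each symbol matched 1 row. The counts come from RNA sequencing of 2 samples of Langerhans cells, skin cells that take up and present antigen. The labels give the cell type as Langerhans cell, while the series title speaks of the monocyte-derived kind, and which kind was sorted is not settled by the labels. Both samples carry the genotype HTR2A-/-, so both lack the serotonin 2A receptor. Both were sorted from mouse ears by CD207 and MHC II staining and then held for 24 hours with imiquimod, an agonist of Toll-like receptor 7, and a-CD40L. The strain, sex and age of the mice, whether ears were pooled, and the deleted part of Htr2a are not stated in the labels. Nothing in the labels says that the samples came from separate mice or cultures, so the spread between them may be partly technical. All samples form 1 group, so no effect of the genotype or of the treatment can be read from these values.

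As background, these GTPases are made in large amounts when a cell receives interferon, above all interferon gamma. Guanylate-binding proteins assemble on vacuoles and on bacteria in the cytosol, damage them and help inflammasomes to sense their contents. Immunity-related GTPases do similar work on vacuoles that hold parasites or bacteria. Among them the regulatory proteins encoded by Irgm1, Irgm2 and Igtp stay on the cell's own membranes and hold the effector proteins, such as those of Iigp1 and Tgtp1, inactive until they reach their target.

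The libraries are called library 1, whose column carries no replicate number, and library 2. Library 1 held 69925160 counts and library 2 held 42264685. Levels are given as CPM, the count relative to all counts of the library, or CPM per kb of exon where genes are compared with each other. Intervals are exact 95% intervals (Poisson for a level) and cover counting error only. A gene was called above background in a library when its CPM per kb exceeded the 95th percentile of 1135 protein-coding olfactory receptor genes. That level was 0.761 CPM per kb in library 1 and 1.58 in library 2, so library 2 needs a higher level to stand out. A gene's place among these genes is given as its olfactory percentile. Htr2a itself had 77 and 117 counts and was within background in both libraries, which is no check of the knockout without wild-type cells. All 10 Langerhans cell markers were above background in both libraries, Cd207 at 1125 and 1052 CPM. Of 12 keratinocyte markers 11 were too, and the list summed to 4444 CPM in library 1 and 15466 in library 2. The T cell and NK cell list, whose cells make interferon gamma, had 6 of 10 genes above background in both and summed to 264 and 139 CPM. No marker of these 3 lists was at 0. The part of these other cells in the results on the GTPases was not tested. In such bulk samples, fewer cells of a type and less RNA per cell cannot be told apart.

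The promoters are shown first, because the members are known as interferon targets. The members were chosen as such, so a high share of interferon motifs among them is no independent result. A link between the motifs and the ratios between the libraries was not tested. RefSeq promoter windows on GRCm38.p6, from 250 bases before to 50 bases after the annotated start, were at hand for 8 of the 10 members, in 9 windows. Each was searched on both strands for the core of the interferon-stimulated response element (ISRE), which is GAAA, any 2 bases and GAAA again, and for the interferon gamma-activated site motif, known as GAS, TTCNNNGAA. The ISRE core was in at least 1 window of all 8 genes and in 8 of 9 windows, against 3.44% of all 32851 windows. The GAS motif was in 5 windows, those of Gbp5, Gbp7, Irgm2, Igtp and Tgtp1, against 8.30% of all windows. Both were in the same window for these 5 genes, against 0.454% of all windows. A match is a description of the letters and does not show that a factor binds. The stretches below give 30 bases around the ISRE core on the gene's own strand, 5′ to 3′. Capitals mark the ISRE core, which reads TTTC, any 2 bases and TTTC where it lies on the opposite strand, and, in the last 3 genes, also the GAS motif just before it.
Gbp2, chr3:142620589-142620618, plus strand: taggaactcttttagTTTCACTTTCactgt
Gbp3, chr3:142559990-142560019, plus strand: aggacacagTTTCAGTTTCTATTTCccaga
Gbp5, chr3:142496754-142496783, plus strand: tctgaacttgtgtagTTTCAATTTCagttt
Gbp7, chr3:142530268-142530297, plus strand: agcctgtgtgtgcagTTTCAGTTTCagttc
Irgm1, chr11:48871430-48871459, minus strand: ctgtttcaaGAAATAGAAACCGAAActgat
Irgm2, chr11:58214898-58214927, plus strand: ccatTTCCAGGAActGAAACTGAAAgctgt
Igtp, chr11:58199507-58199536, plus strand: ccatTTCTAGGAActGAAACTGAAAgctgt
Tgtp1, chr11:48992309-48992338, minus strand: ccatTTCCAGGAAtcGAAACTGAAAcctac

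In Irgm2, Igtp and Tgtp1 the GAS motif began 11 bases before the ISRE core. The windows of Igtp and Irgm2, which are neighbours on chromosome 11, shared an unbroken stretch of 61 bases, so they are not independent examples. In Gbp3 and Irgm1 a pair of ISRE cores overlapped. In the 4 guanylate-binding protein genes the core lay on the strand opposite to the gene, and in the 4 immunity-related GTPase genes it lay on the gene's strand. The distance from the core to the annotated start ran from 165 bases in Gbp5 to 24 in Irgm1, as the map of motif matches shows. These starts come from RefSeq, whereas the gene coordinates given below come from GENCODE. The cores of Gbp2, Gbp5, Irgm1, Irgm2 and Tgtp1 lie inside the GENCODE spans of these genes. The 250 bases before the start of Igtp and of Gbp7 are given in full as 1 example of each family, with every ISRE core and GAS motif in capitals. Those of Gbp7 hold 2 GAS motifs ahead of the core.
Igtp, chr11:58199306-58199555, plus strand: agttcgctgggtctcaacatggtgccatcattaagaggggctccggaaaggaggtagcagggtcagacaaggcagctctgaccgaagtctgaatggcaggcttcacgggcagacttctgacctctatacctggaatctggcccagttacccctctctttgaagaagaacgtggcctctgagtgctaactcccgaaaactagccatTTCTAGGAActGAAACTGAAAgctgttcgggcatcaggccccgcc
Gbp7, chr3:142530086-142530335, plus strand: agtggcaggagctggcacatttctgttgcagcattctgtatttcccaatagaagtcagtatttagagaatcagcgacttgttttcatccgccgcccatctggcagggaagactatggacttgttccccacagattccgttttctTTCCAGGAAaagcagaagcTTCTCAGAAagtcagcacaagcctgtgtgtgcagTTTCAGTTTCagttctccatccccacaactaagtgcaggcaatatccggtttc

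**Figure D1:**
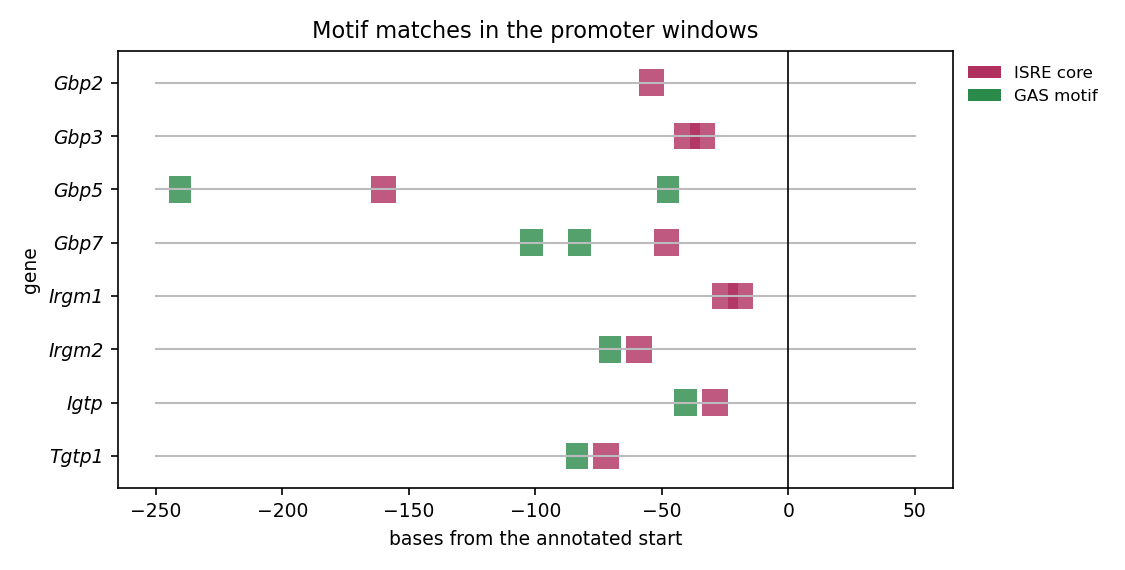
Positions of the ISRE core (red) and the GAS motif (green) in the promoter windows of the 8 members with a match, in bases from the annotated start on the gene's strand (0 is the start, grey lines are the windows searched). In Irgm2, Igtp and Tgtp1 a GAS motif begins 11 bases before the ISRE core, while Gbp2, Gbp3 and Irgm1 hold the core without a GAS motif.

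Of the 10 GTPase genes 5 were above background in both libraries: Gbp2, Gbp3, Gbp5, Gbp7 and Igtp. Among protein-coding genes, Gbp2, Gbp3 and Gbp7 stood at percentiles 88.9, 87.5 and 86.1 per kb in library 1 and at 73.3, 67.8 and 66.1 in library 2. For comparison, 47.3% of 21974 protein-coding genes were above background in both. Library 1 by itself had 9 members above background, all except Iigp1, and library 2 had 5. The members' CPM per kb summed to 53.1 in library 1 and 22.3 in library 2, or 37.7 ± 21.8 (SD, n = 2).

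Among the guanylate-binding proteins, 4 of the 5 genes lie side by side on the plus strand of chromosome 3 (GRCm38), in a block of 144 kb from 142493978 to 142638008. Their order from the start is Gbp5, Gbp7, Gbp3, Gbp2b and Gbp2, and Gbp2b is not one of the members.
Gbp2 (ENSMUSG00000028270), which encodes a prenylated protein that coats bacterial vacuoles, had 2364 and 509 counts, or 33.8 CPM (32.5 to 35.2) in library 1 and 12.0 CPM (11.02 to 13.1) in library 2.
It was the most abundant member per kb of exon in both libraries, at 13.4 and 4.79 CPM per kb, and made up 25.3% and 21.5% of the members' summed level.
Gbp3 (ENSMUSG00000028268) stood at 39.5 CPM (38.1 to 41.0) in library 1 and 11.9 CPM (10.9 to 13.0) in library 2.
Gbp7 (ENSMUSG00000040253), whose product is known for linking vacuole defence to autophagy and the NADPH oxidase, stood at 59.7 CPM (57.9 to 61.6) and 18.9 CPM (17.6 to 20.2).
The 3 genes held the first 3 ranks per kb in both libraries, in the order Gbp2, Gbp3, Gbp7. Their means over the libraries were 9.11 ± 6.12, 7.88 ± 5.98 and 7.0 ± 5.15 CPM per kb (SD, n = 2), so the order of the means does not exceed the spread between libraries.

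Gbp5 (ENSMUSG00000105504), a guanylate-binding protein linked to NLRP3 inflammasome assembly, was closer to equal in the libraries than the other members in the block. It had 1409 and 733 counts, or 20.2 CPM (19.1 to 21.2) in library 1 and 17.3 CPM (16.1 to 18.6) in library 2. Per kb it held rank 6 among the members in library 1 and rank 4 in library 2, at 3.04 and 2.61 CPM per kb.
Gbp2b, which lies between Gbp3 and Gbp2, had only 74 and 80 counts and was within background in both libraries, at 0.375 and 0.671 CPM per kb. The block therefore holds a gene within background between the 2 members that were most abundant per kb. By CPM, Gbp7 was the most abundant member in both libraries.
Gbp6 (ENSMUSG00000104713, chromosome 5, 105270702 to 105293698, minus strand) stood at 5.69 CPM (5.15 to 6.28) and 6.10 CPM (5.38 to 6.90). Per kb it was at olfactory percentile 96.9 in library 1 and 79.0 in library 2, so it was not detectable above background in library 2.
Of all 50-base stretches in Gbp6 transcripts, 70.7% also occur in transcripts of other genes, 65.0% in Gm43302, so its count depends on how shared reads were assigned. Gm43302 itself had 2.69 CPM in library 1 and 2.22 CPM in library 2.

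The 3 regulatory immunity-related GTPases were at lower levels than Gbp2, Gbp3 and Gbp7 in both libraries.
Igtp (ENSMUSG00000078853, chromosome 11, 58199556 to 58207591, plus strand), which encodes the regulator also called Irgm3, had 785 and 207 counts. This gave 11.2 CPM (10.5 to 12.0) and 4.90 CPM (4.25 to 5.61).
Irgm2 (ENSMUSG00000069874, chromosome 11, 58199618 to 58222782, plus strand) stood at 13.2 CPM (12.3 to 14.1) and 5.35 CPM (4.67 to 6.09).
Irgm1 (ENSMUSG00000046879, chromosome 11, 48861968 to 48871683, minus strand), the regulator best known for restraining interferon responses and mycobacteria, stood at 12.7 CPM (11.9 to 13.6) and 7.78 CPM (6.97 to 8.67).
Per kb, Igtp led this trio with 5.55 and 2.42 CPM per kb and was its only gene above background in both libraries. In library 2, Irgm2 was at olfactory percentile 93.0 and Irgm1 at 90.4, under the limit of 95. The intervals of Irgm2 and Irgm1 per kb overlapped in library 2 (1.27 to 1.65 and 1.20 to 1.49) and did not in library 1 (3.34 to 3.81 and 2.05 to 2.34).
Igtp and Irgm2 share 162 bases of annotated exon on the same strand, which is 8.01% of Igtp's exon length and 4.39% of that of Irgm2.

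The effector GTPases were at the lower end of the members, and neither was above background in both libraries.
Iigp1 (ENSMUSG00000054072), which encodes the vacuole-disrupting effector Irga6, had 191 and 224 counts, or 2.73 CPM (2.36 to 3.15) in library 1 and 5.30 CPM (4.63 to 6.04) in library 2. Per kb the gene was within background in both libraries, at olfactory percentiles 84.0 and 71.4.
Tgtp1 (ENSMUSG00000078922, chromosome 11, 48985327 to 48994172, minus strand), which encodes the effector Irgb6, had 259 and 94 counts, or 3.70 CPM (3.27 to 4.18) and 2.22 CPM (1.80 to 2.72).
It passed background in library 1, at percentile 98.0, but not in library 2, at 54.8.
Tgtp1 and its copy Tgtp2 cannot be separated well, since 81.2% of the 50-base stretches of Tgtp1 transcripts occur in other genes, 79.4% in Tgtp2. Tgtp1 and Tgtp2 summed to 610 counts (8.72 CPM) in library 1 and 228 counts (5.39 CPM) in library 2.
By the counts assigned to each gene, the regulatory genes exceeded both effector genes per kb in each library. The lowest regulator, Irgm1, was at 2.19 and 1.34 CPM per kb, against at most 1.16 and 0.910 for the effectors. Tgtp2, which is not a member, stood at 1.71 and 1.08 CPM per kb. The place of Tgtp1 below Irgm1 thus depends on how reads shared with Tgtp2 were assigned. In library 2 the levels of Irgm1 and of both effectors were within background.

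**Figure D2:**
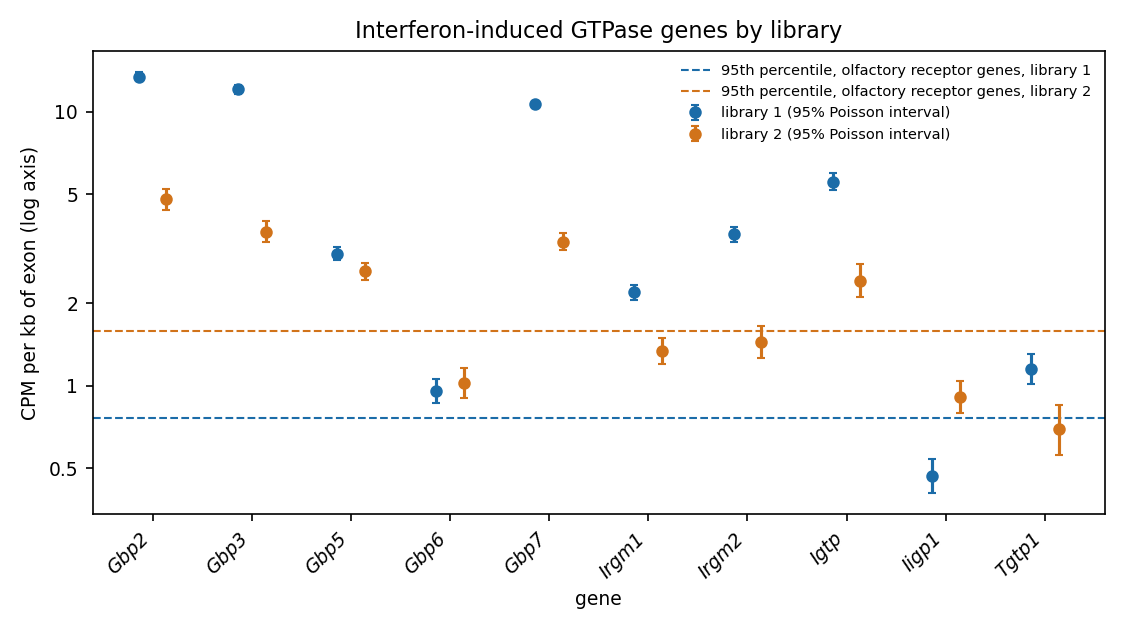
Level of each member in CPM per kb of exon (log axis) in library 1 (blue) and library 2 (orange), with 95% Poisson intervals for counting error. Dashed lines are the limits set by the olfactory receptor genes, 0.761 for library 1 and 1.58 for library 2: Gbp2, Gbp3, Gbp5, Gbp7 and Igtp lie above the line of their library in both.

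The libraries were then set against each other to see how far replicates of the same condition differ in these genes. Ratios were scaled by TMM, which lowers each log2 ratio by 0.501 against total counts and puts the median of all 30356 tested genes at 0.15 (0.65 with total counts). All 10 members were called by edgeR's exact binomial test at an adjusted p under 0.05, but so were 80.3% of all tested genes, so the calls say little about these genes. Of the members 9 were lower in library 2, against 36.1% of all tested genes, and 1 was higher, against 44.2%. The test covers sampling noise alone and compares 2 libraries, not conditions. Of the members 7 were called and at least 2-fold lower in library 2, against 12.6% of all tested genes, and none was called and at least 2-fold higher, against 24.5%. With total counts in place of TMM, 5 members had a log2 ratio of -1 or below, and with the background subtracted 9 did. The median log2 ratio of the members was -1.46, against the 0.15 of all tested genes. The members and these lists were chosen with earlier results of the data known, so this is a description.

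Gbp3, Gbp7 and Gbp2 had the lowest TMM-scaled ratios, with overlapping intervals. With the median background subtracted from each library, Tgtp1 (-4.75) and Irgm2 (-2.56) lay below Gbp3 (-2.48), Gbp7 (-2.44) and Gbp2 (-2.17). The value of Tgtp1 is not reliable. Its level in library 2, 0.694 CPM per kb (0.561 to 0.849), has an interval that includes the subtracted median of 0.645.
The log2 ratio of library 2 over library 1 was -2.23 (95% interval -2.37 to -2.09) for Gbp3 and -2.16 (-2.28 to -2.05) for Gbp7. It was -1.99 (-2.13 to -1.85) for Gbp2 (adjusted p = 8.90e-224, edgeR's exact binomial test).
The 3 TMM-scaled ratios lay at percentiles 1.62 (Gbp3), 1.87 (Gbp7) and 2.48 (Gbp2) of all tested genes.
Irgm2 followed at -1.80 (-2.02 to -1.59) and Igtp at -1.69 (-1.93 to -1.47), with overlapping intervals. Tgtp1 was at -1.23 (-1.59 to -0.89) and Irgm1 at -1.21 (-1.40 to -1.03).
Gbp5 was lower in library 2 by less than any of these, at -0.72 (-0.85 to -0.59, adjusted p = 3.40e-28, same test). Its interval did not overlap that of any of the 7 genes named before it.
The ratio of Gbp6 was -0.40 (-0.63 to -0.17, adjusted p = 0.000735, edgeR's exact binomial test), but 0.10 with total counts, where it was not called (adjusted p = 0.424, same exact test). It was -1.45 with the background subtracted. Summed with its near copies Gbp10 and Gm43302, Gbp6 was at -0.55 with TMM and -0.05 with total counts.
Iigp1 was the only member higher in library 2, at 0.45 (0.17 to 0.74, adjusted p = 0.00197, edgeR's exact binomial test). It was within background in both libraries, and the background itself was higher in library 2, with a median olfactory receptor gene at 0.221 CPM per kb in library 1 and 0.645 in library 2. With that median subtracted from each library, the ratio of Iigp1 was -0.41. With a dispersion of 0.04 between libraries in place of 0, the calls for Gbp5, Gbp6 and Iigp1 were lost (adjusted p = 0.176, 0.499 and 0.450, edgeR's exact test). That setting is below the dispersion estimated from the 2 libraries.

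**Figure D3:**
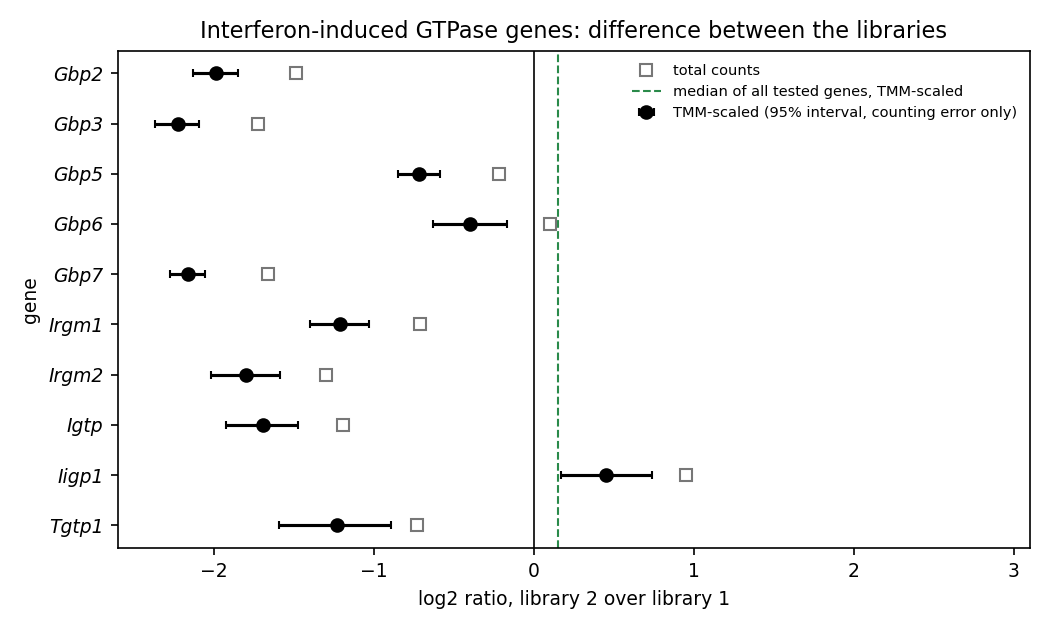
Log2 ratio of library 2 over library 1 for each member, TMM-scaled with 95% intervals for counting error (black) and with total counts (grey squares). The dashed line is the median of all tested genes, 0.15: Gbp2, Gbp3, Gbp7, Irgm1, Irgm2, Igtp and Tgtp1 lie below -1, Gbp5 and Gbp6 between -1 and 0, and Iigp1 above 0, while Gbp6 is above 0 with total counts.

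Other interferon-induced GTPases were measured beside the members. Of 16 such genes 6 were above background in both libraries, against 47.3% of protein-coding genes. In library 2, 11 of the 16 were called lower and 2 higher, against 36.1% and 44.2% of all tested genes. The median log2 ratio of the 16 was -1.12. The most abundant per kb of those 6 were Mx1, a dynamin-like antiviral GTPase (21.8 and 23.8 CPM), the very large GTPase gene Gvin1 (57.6 and 28.9 CPM), 9930111J21Rik2 (41.5 and 13.7 CPM) and Mx2 (6.78 and 18.8 CPM). Gvin1 and 9930111J21Rik2 were lower in library 2, with ratios of -1.49 and -2.10. Mx2 was higher (0.97), and Mx1 was at -0.38 with TMM but 0.12 with total counts. The Mx genes, which do not stand for all targets of type I interferon, thus lay above the ratios of Gbp2, Gbp3 and Gbp7. With 1 ratio a gene, that difference was not tested against a spread between replicates.

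The ligands and inducers upstream of the family were at very different levels. Ifng, the main inducer of these GTPases, had 96 counts in library 1 and 36 in library 2, or 1.37 and 0.852 CPM. Per kb it was at olfactory percentile 97.5 in library 1 and 51.6 in library 2, where it was not detectable above background. Ifnb1, the type I interferon beta gene, went the other way, with 106 and 585 counts, or 1.52 and 13.8 CPM (log2 ratio 2.68). It was above background in both libraries. Of the 15 ligand genes and inducers of interferon gamma 6 were above background in both, led per kb by Il18 (17.3 and 22.1 CPM), with Ifnb1, Ebi3 (14.97 and 5.63 CPM) and Ifnk (2.13 and 3.79 CPM) following. Of the 10 with enough counts to be tested, 6 were called lower and 2 higher in library 2. Among all tested genes 36.1% were called lower and 44.2% higher. Library 2 held more Ifnb1 and less of Gbp2, Gbp3 and Gbp7, and a link between these levels was not tested.

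The receptors and signalling genes for interferon were well expressed. All 6 receptor genes were above background in both libraries, led per kb by Ifngr1 (102 and 60.5 CPM) and Ifnar1 (148 and 132 CPM), with Ifnar2 (82.2 and 53.9 CPM) and Ifngr2 (70.7 and 46.4 CPM) next. Of them 5 were called lower in library 2 and 1 was called higher, Ifnlr1, the receptor chain for interferon lambda, named after its values were seen. Both chains of the interferon gamma receptor thus exceeded every member in CPM per kb: Ifngr2, the lower of the pair, stood at 18.8 and 12.3, against 13.4 and 4.79 for Gbp2. Of 16 signalling and transcription factor genes 15 were above background in both libraries, led by the kinase gene Jak2 (483 and 156 CPM), Irf5, Stat3 and Jak1. All 16 were called lower in library 2, 11 of them at least 2-fold, with a median log2 ratio of -1.27. Among all tested genes 36.1% were called lower, 12.6% at least 2-fold, and 44.2% were called higher. With total counts, 14 of the 16 ratios were below 0, and Irf3 and Batf2 were at 0.05 and 0.04.

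Irf1, a transcription factor gene named here after its values were seen because it is a known activator of the family, was at 66.1 and 53.5 CPM, with a ratio of -0.81. The summed CPM of the 10 members was 18.0% and 8.73% of the Cd207 level, 2.82% and 2.26% of the Cd74 level, and 33.2% and 64.8% of the level of Ptprc, the leukocyte marker CD45. Against Krt14, a keratin of keratinocytes, it was 15.4% and 1.91%. Relative to Cd207 (log2 ratio -0.60) the members' sum was lower in library 2, and relative to Ptprc (-2.61) it was higher. The 6 inhibitors of interferon signalling were all called lower in library 2, against 36.1% of all tested genes. They were led per kb by Socs3 (615 and 149 CPM) and Ptpn6 (240 and 55.3 CPM).

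Genes that serve the GTPases after they are made were measured in 3 lists. The 10 autophagy genes that load these GTPases onto vacuoles were all above background, led per kb by Gabarap (118 and 84.2 CPM) and Gabarapl1 (64.9 and 64.0 CPM). Of them 9 were called lower in library 2, against 36.1% of all tested genes, and none was called and at least 2-fold lower. Their median log2 ratio was -0.63 with TMM and -0.13 with total counts. Map1lc3a was called higher, at 10.9 and 33.0 CPM. The 6 genes of prenylation, the lipid modification that anchors some guanylate-binding proteins to membranes, had a median of -0.53 with TMM. With total counts it was -0.03. In this list 5 genes were called lower in library 2 and 1 higher, against 36.1% and 44.2% of all tested genes. Fnta, the subunit shared by both prenyl transferases, stood at 16.2 and 16.0 CPM. The 12 inflammasome and ubiquitin genes linked to guanylate-binding proteins were all above background, led per kb by Il1b (1658 and 1018 CPM) and the autophagy receptor gene Sqstm1 (547 and 465 CPM). Of these 11 were called lower in library 2, 7 at least 2-fold, and the median of the list was -1.09. Among all tested genes 36.1% were called lower, 12.6% at least 2-fold.

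**Figure D4:**
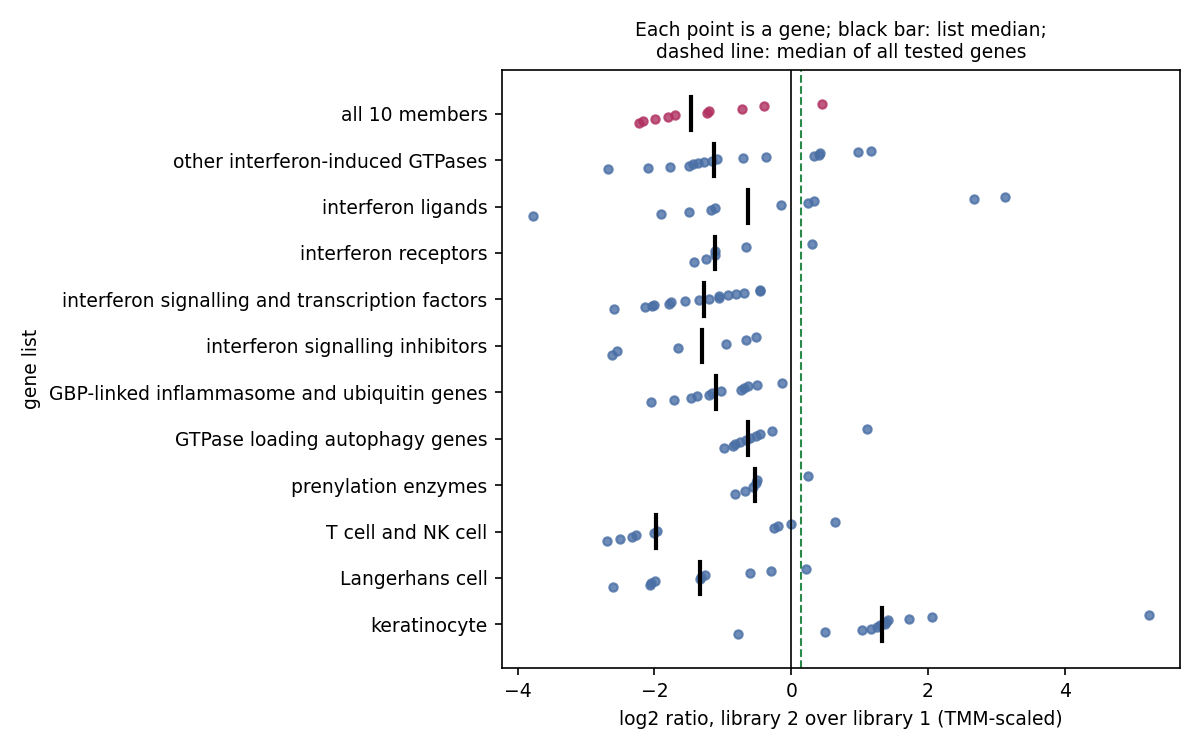
Log2 ratio of library 2 over library 1 (TMM-scaled) for the tested genes of each list, with the list median as a black bar and the median of all tested genes, 0.15, as a dashed line. The members (red) have a median of -1.46, the autophagy and prenylation genes lie closer to 0 (-0.63 and -0.53), and the keratinocyte genes lie on the other side (1.33).

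The differences between the libraries went along with differences in cell markers, and their part in the ratios of the GTPases was not tested. Among all tested genes 44.2% were called higher in library 2 and 36.1% lower. Of 12 keratinocyte markers 11 were called higher in library 2, with a median log2 ratio of 1.33. Of 10 Langerhans cell markers 9 were called lower, with a median of -1.33 with TMM and -0.83 with total counts. Their TMM-scaled ratios ran from -2.61 (Ptprc) to 0.22 (Cdh1), with Cd207 at -0.60 and Epcam at -0.30. With total counts 8 of the 10 ratios were below 0, Cd207 was at -0.10 and Epcam at 0.20. Of 10 T cell and NK cell markers 6 were called lower and 1 higher (median -1.98). Of 8 macrophage and monocyte markers 7 were called lower (median -1.75), and their summed level was 1031 CPM in library 1 and 650 CPM in library 2. The fibroblast list had 4 of 6 genes lower (median -2.21) and summed to 114 and 42.7 CPM. The endothelial list summed to 83.2 and 45.6 CPM, with 1 of 5 genes above background in both libraries. The mast cell list summed to 28.7 and 21.6 CPM, with 1 of 5, and Fcer1a was at 0 in both libraries and Mcpt4 in library 1. The neutrophil list went from 309 to 617 CPM, with 2 of 5 genes called higher and 1 lower. The higher genes were S100a8 (log2 ratio 0.88) and S100a9 (0.73), and the lower gene was Csf3r (-2.39). Ly6g and Cxcr2 were not called, so the sum does not stand for the list as a whole. Library 2 was also the shallower library.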

How the data were processed

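Counts were analysed from 2 libraries of 1 group. Per the labels, each library used between 10 and 70 ng of RNA and a stranded kit for low input. The authors deposited raw whole-number counts for each Ensembl gene in 1 table, and its final row of column sums was dropped. The submitters' processing notes list Trimmomatic, HISAT2, SAMtools and StringTie with the build GRCm38. Not given in the sources used here are the annotation, the strand setting and the counted unit (read or pair).

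Symbols matched 55141 rows, and equal symbols were summed. Exon lengths (union of exons) came from GENCODE M21, and promoters from RefSeq. Genes reaching 1 CPM in either library entered an exact binomial test on TMM-scaled totals (binomTest in edgeR 4.0.16 under R 4.3.3). Its p-values were adjusted by Benjamini-Hochberg over all genes at 0.05. The test was checked on data simulated with counting noise alone, without the larger spread of these libraries. It assumes a dispersion of 0, since 2 libraries of 1 group leave no contrast for a quasi-likelihood fit. Ratios used a prior count of 1, with exact binomial intervals. All members are described, and of each other pathway list up to 4 genes, those with the highest mean level per kb among genes above background. Scaling, filter, dispersion, prior count, background and length were varied. The members, lists and background were chosen with earlier results of these data known. The values of 1 gene of the signalling list are not reported here.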

Additional observations from a re-analysis of the deposited data

How the results depend on the processing

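Changing the scaling, the filter or the test tool left 9 or 10 members called, and a dispersion of 0.04 in edgeR's exact test left 7, when it called 10189 of all tested genes in place of 24361. There Gbp5 (adjusted p = 0.176, exact test), Gbp6 (adjusted p = 0.499, exact test) and Iigp1 (adjusted p = 0.450, exact test) were no longer called. The biological coefficient of variation, the square root of the dispersion, was estimated from the 2 libraries at 0.638. A dispersion of 0.04 is below that spread, and calls at the estimated spread were not tested. The median log2 ratio of the members was -0.96 with total counts and -2.13 with the median background subtracted. Gbp6 changed sign with total counts (0.10) and Iigp1 with the background subtracted (-0.41). With DESeq2 size factors all 10 ratios kept their direction and their call. Leaving out 1 library, the number of members above background was 5 to 9 and the members' summed level 22.3 to 53.1 CPM per kb. The share of Gbp2 among the members was 16.7% in library 1 and 13.1% in library 2 when counts were not divided by exon length. No paired analysis was possible because there is only 1 group. Tgtp1 had 94 counts in library 2 and was within background there, at olfactory percentile 54.8. Gbp6, Irgm1 and Irgm2 lay above the background limit of library 1 in both libraries but under the higher limit of library 2 there.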
